A study of Mus musculus with 28 samples.

Results

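A group of 39 genes for the matrix of connective tissue and for the fibroblasts that make it was read in the mammary tumors, lung metastases and normal tissues of a mouse model, and in the cultured cells that seeded the tumors. The list holds collagens, proteoglycans, elastic fiber proteins, adhesive proteins, cross-linking enzymes and fibroblast surface proteins. It was not chosen by a threshold on these arrays, but earlier results of these data were known when it was chosen. Of the 39 genes, 36 had a probe set with that gene alone in the annotation given, out of 18194 genes in all. Fbn1 and Spp1 were not analysed here, and Loxl2 was left out because its probe sets also list another gene. Each gene was read from the probe set that averaged highest across the 26 tissue arrays, as a log2 value, so 1 unit is a change of 2-fold.

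The interstitial matrix is a mesh of fibrillar collagens, with types I, III and V as its main fibers, and these are laid down mostly by fibroblasts. Small leucine-rich proteoglycans and fibril-associated collagens coat the fibers, lysyl oxidases cross-link them, and elastin with its microfibrils gives recoil. Basement membranes are sheets built on type IV collagen under epithelium and around vessels. In carcinomas the fibroblasts among the tumor cells and, in mesenchymal tumors, the tumor cells themselves can make these proteins. In the mammary gland fibroblasts lie among fat and ducts, and the lung holds a fine elastic network in the walls of its airspaces.

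All mice were Balb/c nude mice. These lack a working thymus, so they have few T cells but keep their own fibroblasts, vessels and myeloid cells. The primary tumors (PT, 11 samples) and the lung metastases (LungMets, 9 samples) grew from JygMC(A), a line of mammary carcinoma cells of the mouse whose tumors seed the lung spontaneously, of which 50000 cells were injected per gland into the fourth mammary gland. The labels put PT at 30 days and LungMets at 50 days after injection and name a subcutaneous site, while the methods name the fat pad, female mice and a line with a GFP and luciferase reporter. Normal mammary gland (NMG, 3 samples) and normal lung parenchyma (NL, 3 samples) came from healthy nude mice without tumor cells. JygMC(A) cells grown as a monolayer (Monolayer) and as 3D spheres (Spheres) gave 1 array each, so they enter no test. The labels give no age, and by the methods the mice were young adults. The labels call the tissue samples biological replicates without naming the animal. The methods took more than 1 fragment from some tumor-bearing mice for the blocks they describe, so samples within a group, and PT and LungMets samples, may share a mouse, and the p-values measure only the spread between samples.

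Whole tissue was extracted, so in every comparison fewer cells of a type and less RNA per cell cannot be told apart. The labels give 4 dates. PT replicates 1 to 4, LungMets replicates 1 to 4 and both cultures share one date, the other PT and LungMets share another, and NL and NMG each have a date of their own. Date and tissue therefore cannot be told apart in any comparison with NMG or NL. A pair of arrays went against their labels. PT replicate 5 correlated 0.968 with the other PT and 0.989 with the LungMets, and the mean over 11 lung epithelium genes was 10.6 on it against 5.15 to 7.41 on the other PT. LungMets replicate 9 correlated 0.963 with the other LungMets and 0.983 with the PT, and its lung epithelium mean was 6.85 against 10.4 to 11.4 on the other LungMets. NL lay at 12.4 to 12.5 and NMG at 5.72 to 7.98. NMG was in turn high for 10 adipocyte genes, with means of 10.03 to 11.36 against at most 8.00 in NL. Both arrays stayed under their labels, and counts are also given without them. For the counts without them the share of all genes called is not given. PT replicate 5 and LungMets replicate 5 were the most alike of all pairs of arrays, at a correlation of 0.995.

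Several of the genes lie beside each other in the mouse genome. In the RefSeq order for GRCm38.p6, Col4a1 is next to Col4a2, Col3a1 to Col5a2, Col6a2 to Col6a1 and Dcn to Lum. Col4a1 and Col4a2, which encode the chains of the main type IV collagen of basement membranes, start 21 bases apart and are read in opposite directions, and their promoter windows share 78 bases. Their windows are printed because both genes rose together in LungMets against PT. That of Col1a2, a chain of type I collagen, is printed because it had the largest gap between tumor and culture, and that of Thbs2, which encodes the matricellular protein thrombospondin 2, because it had the largest fall in LungMets against PT. The windows of 300 bases are RefSeq sequence of GRCm38.p6, written 5′ to 3′ on the strand of the gene, at chr8:11312777-11313076 (minus strand) for Col4a1, chr8:11312555-11312854 (plus strand) for Col4a2, chr6:4505368-4505667 (plus strand) for Col1a2 and chr17:14694213-14694512 (minus strand) for Thbs2. Capitals mark 3 short promoter motifs, searched on both strands and read there as the reverse complement where they lie on the other strand: the letters TATAAA of the TATA box, the letters CCAAT of the box of that name, and the letters GGGCGG of the GC box bound by Sp proteins.
Col4a1: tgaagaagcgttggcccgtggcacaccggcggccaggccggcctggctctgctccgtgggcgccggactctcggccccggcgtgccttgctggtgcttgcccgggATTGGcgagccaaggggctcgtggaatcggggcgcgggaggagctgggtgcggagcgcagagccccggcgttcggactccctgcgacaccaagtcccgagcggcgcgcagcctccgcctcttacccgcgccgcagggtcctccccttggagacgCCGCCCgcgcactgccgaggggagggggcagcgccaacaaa
Col4a2: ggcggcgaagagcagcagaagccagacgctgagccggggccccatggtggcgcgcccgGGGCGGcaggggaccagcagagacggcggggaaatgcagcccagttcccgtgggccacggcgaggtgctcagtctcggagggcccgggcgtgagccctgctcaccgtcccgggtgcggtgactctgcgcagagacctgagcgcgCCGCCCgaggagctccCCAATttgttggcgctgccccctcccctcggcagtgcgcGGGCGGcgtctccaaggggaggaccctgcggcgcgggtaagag
Col1a2: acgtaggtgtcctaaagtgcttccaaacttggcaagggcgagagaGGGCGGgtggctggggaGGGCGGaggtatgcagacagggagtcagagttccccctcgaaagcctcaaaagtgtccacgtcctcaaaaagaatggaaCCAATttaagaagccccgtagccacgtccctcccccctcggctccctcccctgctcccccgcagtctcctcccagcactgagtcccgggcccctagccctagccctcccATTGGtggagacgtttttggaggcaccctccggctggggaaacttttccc
Thbs2: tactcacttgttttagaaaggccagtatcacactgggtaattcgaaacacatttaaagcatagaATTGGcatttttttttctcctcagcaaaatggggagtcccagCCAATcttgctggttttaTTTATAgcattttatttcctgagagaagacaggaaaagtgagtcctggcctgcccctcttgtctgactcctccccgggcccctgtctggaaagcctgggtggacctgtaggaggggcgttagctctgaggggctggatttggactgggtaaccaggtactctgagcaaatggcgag
The type IV collagen windows are rich in G and C, at 74% for Col4a1 and 73.7% for Col4a2, against 61% for Col1a2 and 48.3% for Thbs2. A window was found for 21 of the 36 genes, 27 windows in all. GGGCGG stood in 13 of these (48.1%) against 35.7% of all 32851 windows, CCAAT in 7 (25.9%) against 37.4%, and TATAAA in 6 (22.2%) against 13.6%. These matches describe letters and do not show that a factor binds there.

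The genes varied far more among the tumors than most genes did. Within PT the SD of a gene over the 11 arrays had a median of 0.986 over the 36 genes, against 0.228 over all genes, and all 36 lay above that. It ran from 0.231 for Col4a1 to 1.669 for Col6a3, a chain of the microfibrillar collagen VI. In LungMets the median SD was 0.821 against 0.229, from 0.313 for the basement membrane collagen Col15a1 to 1.516 for the proteoglycan gene Lum. In NMG it was 0.310 against 0.133 and in NL 0.234 against 0.161. The PT SDs include replicate 5, the lowest PT in 16 of the 36 genes. The LungMets SDs include replicate 9, the highest LungMets in 18 of the 36. Both arrays went against their labels, and SDs without them are not given. The variation within PT ran through most of the genes at once. In PT replicates 1, 5, 6 and 10 between 32 and 34 of the 36 genes lay below the PT mean, and the mean of the genes was 8.09 to 8.46 there against 9.18 to 10.07 in the other 7 PT. The same 4 arrays had the lowest means of PT over 16 other fibroblast genes, 6.82 to 7.47 against 7.57 to 7.96. They were also the lowest PT over lists for collagen processing, other collagens, TGF-beta and PDGF signals, and pericytes and smooth muscle. That was not so for adipocytes, mammary epithelium, lung epithelium or cartilage. For endothelium and macrophages, replicates 1, 6 and 10 were the lowest PT, while replicate 5 was higher, at 7.78 and 8.08. These lists were measured beside the result and their part in it was not tested. In LungMets the mean of the genes ran from 8.07 in replicate 3 to 9.63 in replicate 9.

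**Figure D1:**
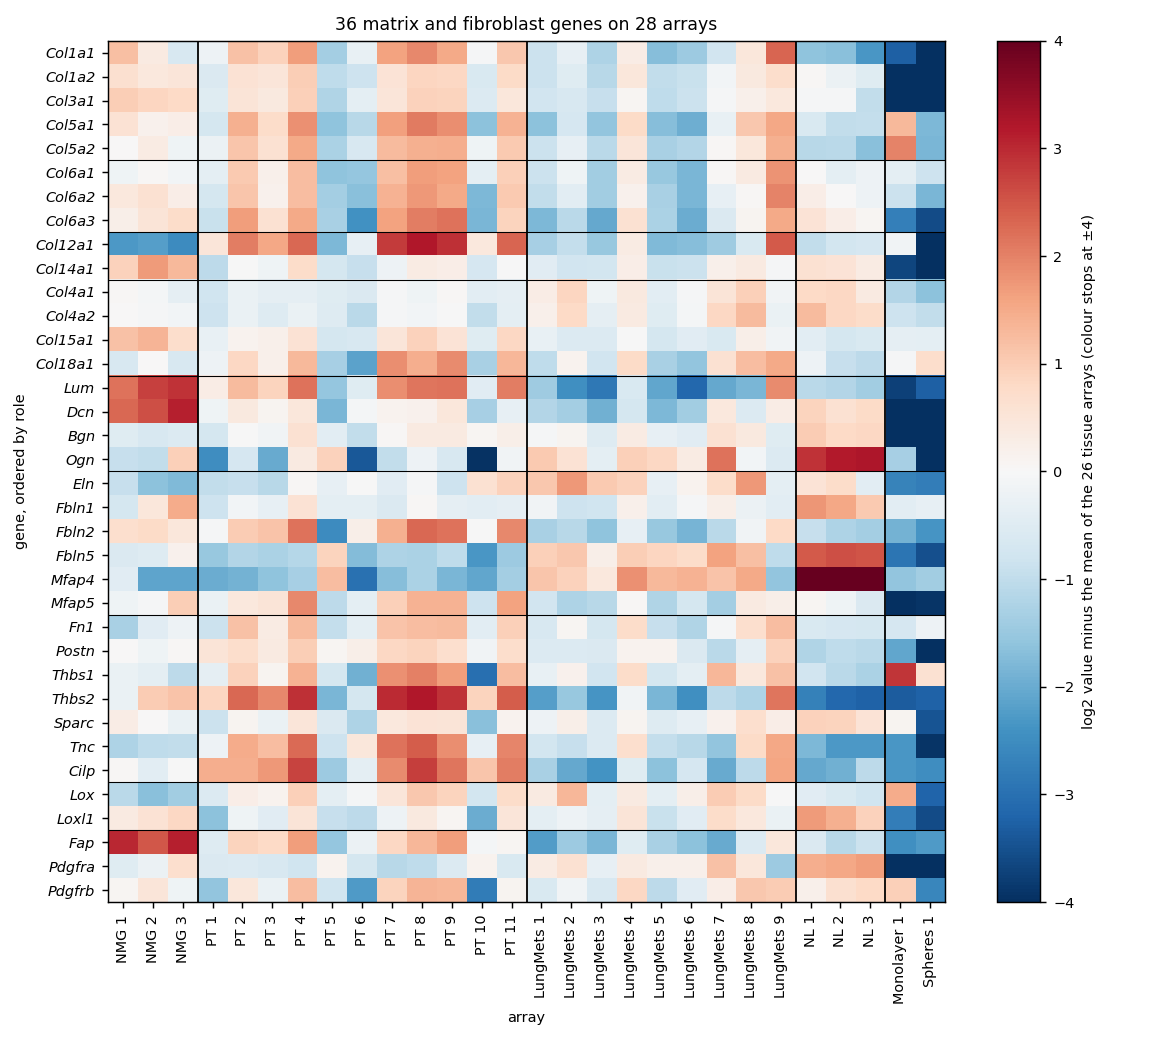
Each row is 1 of the 36 genes, each column 1 of the 28 arrays, and the colour is the log2 value minus the gene's mean over the 26 tissue arrays, stopping at 4 units either way. PT replicates 1, 5, 6 and 10 are paler or bluer than the other PT in most rows, LungMets replicate 9 is redder than the other LungMets in the rows of the fibrillar collagens and collagen VI, and both cultures are blue in many rows.

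The cultured tumor cells expressed some of these genes, and the share expressed in both cultures (50%) was close to that of all genes (55.8%). A gene was counted as expressed on an array when it lay above the 95th percentile of 74 sensory receptor genes. These were assumed to be mostly silent here, and the limit was 5.20 on the Monolayer array and 5.35 on the Spheres array. By this measure 18 of the 36 genes were expressed in both cultures (55.8% of all genes were), 8 in 1 culture (6.21% of all genes), and 10 in tissue only (11.6% of all genes). The 8 were all expressed in the Monolayer and not in the Spheres. With 1 array per culture these are descriptions with no test.

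The 18 genes found in both cultures included Fn1, the adhesive glycoprotein fibronectin, at 11.07 in the Monolayer and 11.51 in the Spheres, and both type IV collagen chains, Col4a1 at 9.63 and 9.16 and Col4a2 at 8.88 and 8.71. The 3 collagen VI chains lay at 7.31 to 9.23 in the Monolayer and 6.45 to 8.78 in the Spheres. Of the same 18, Eln, Fbln1, Mfap4 and Col15a1 were within 0.4 log2 units of the limit in both cultures. With the 99th percentile or the array median over genes as the limit, 13 genes were counted in both cultures and 15 in tissue only. Shares of all genes at these limits are not given, so these counts show only how the classes move with the limit. The 10 tissue genes were the proteoglycan genes Lum and Dcn, the fibril-associated collagen Col14a1, the thrombospondin gene Thbs2, the elastic fiber genes Fbln5 and Mfap5, the lysyl oxidase relative Loxl1, the cartilage intermediate layer protein gene Cilp, and the fibroblast surface proteins Fap, a serine protease, and Pdgfra, a receptor for PDGF. Dcn, which encodes the collagen-binding proteoglycan decorin, was 4.68 in the Monolayer and 4.72 in the Spheres, and in PT it ran from 7.99 to 10.28 with a median of 9.91. Every PT lay above both cultures for all 10 of these genes, which their selection as low in culture and present in tissue largely fixed.

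Col1a2 and Col3a1, chains of type I and type III collagen, were the genes farthest from the cultures. Col1a2 was 6.78 in the Monolayer and 6.45 in the Spheres, and in PT it ran from 11.17 to 13.17 with a median of 12.73. Col3a1 was 7.12 and 4.22 in the cultures and 10.82 to 13.00 in PT. The PT mean lay 5.59 log2 units over the higher culture for Col1a2 and 5.09 for Col3a1. In all, 18 of the 36 genes had a PT mean at least 2 units above the higher culture, against 2.26% of all genes. For 15 the LungMets mean lay that far above it, against 3.53%, and for 8 when each gene was averaged over its probe sets, and Col6a3, Thbs2 and Tnc passed by less than 0.05 units. The Monolayer was above the PT mean for others. Thbs1, the platelet and matrix protein thrombospondin 1, was 11.69 in the Monolayer and 9.43 in the Spheres, against a PT median of 9.75, and no PT reached the Monolayer value. Col5a2, a chain of type V collagen, was 13.18 in the Monolayer and 9.34 in the Spheres, against 9.92 to 12.70 in PT. Lox, the main lysyl oxidase, was 10.35 in the Monolayer and 5.69 in the Spheres, against 8.14 to 9.96 in PT. Pdgfrb, the other PDGF receptor, was 10.80 and 7.22 in the cultures against a PT mean of 9.62. Tissue RNA was taken with TRIzol and culture RNA with a column kit, so the extraction and the source of the RNA cannot be told apart here.

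The Monolayer array was the richer of the cultures in these genes. In 27 of 36 it lay above the Spheres array, against 46.5% of all genes, with a median difference of 0.47 against -0.03 over all genes. In 11 it lay at least 2 log2 units above, against 1.31% of all genes, and none of the 36 lay that far below, against 0.489%. Postn, the matricellular protein periostin, was 10.29 in the Monolayer and 4.26 in the Spheres, the widest gap of the 36, at 6.03 units. The next were Lox (4.66 units), Col12a1 (4.19), which encodes a collagen that bridges fibrils, Ogn (3.99), which encodes the small proteoglycan osteoglycin, and Col5a2 (3.84). Sparc, which binds collagen and calcium, was 12.10 and 8.55. Col18a1, the basement membrane collagen that endostatin is cut from, went the other way, with 8.13 in the Monolayer and 8.87 in the Spheres.

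**Figure D2:**
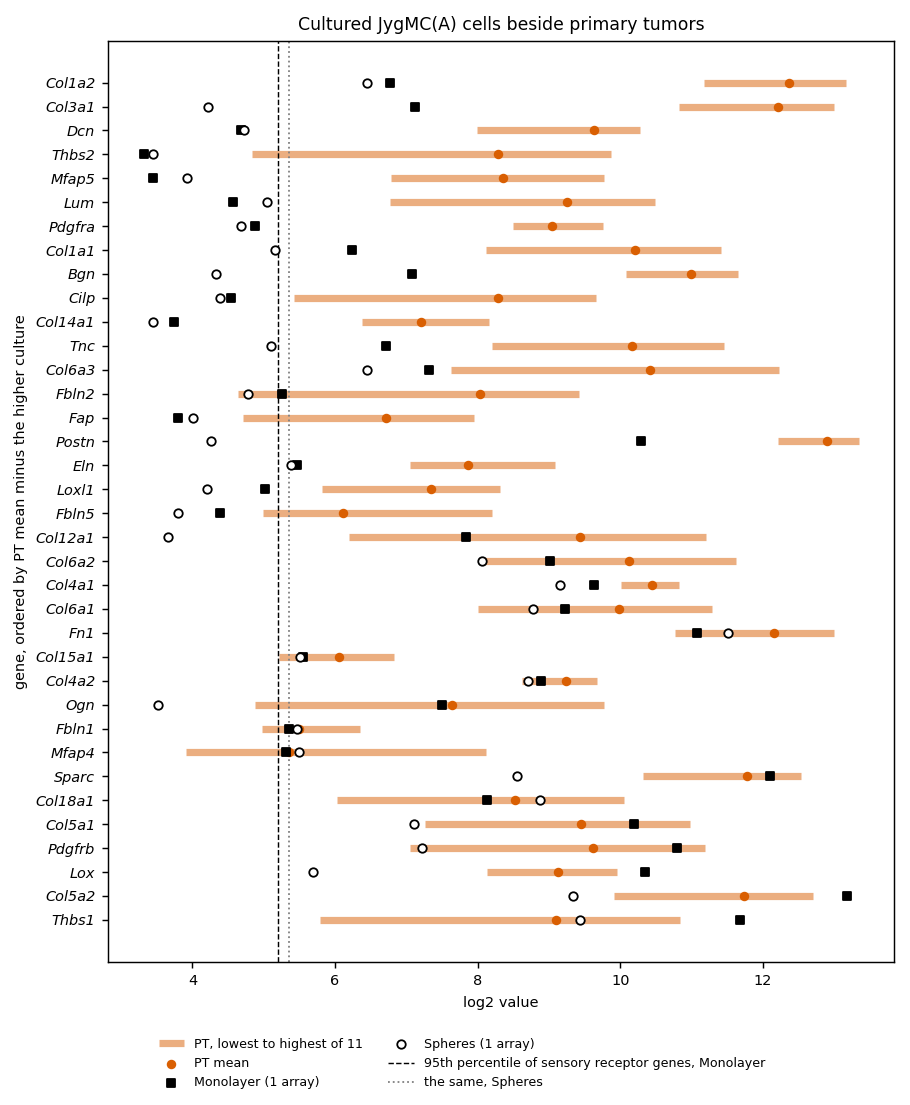
The horizontal axis is the log2 value, each row is a gene, the bar spans the lowest to the highest of the 11 PT with the mean as a point, and the square and the circle are the single Monolayer and Spheres arrays. The vertical lines are the 95th percentile of the sensory receptor genes on each culture array, and the rows run from Col1a2, whose PT mean minus the higher culture is 5.59, to Thbs1, where it is -2.58.

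Against the normal gland, the primary tumors had more Col12a1, Tnc, Lox and Eln and less Dcn, Fap, Col14a1, Loxl1 and Col15a1, while the main fiber collagens did not pass the test. Of the 36 genes, 4 were higher in PT (11.1%), where 26.7% of all genes were, and 5 were lower (13.9%), where 21% of all genes were. The other 27, from Lum at -1.66 to Cilp at 1.54, did not pass limma's test at an adjusted p under 0.05. In 6 of the 36 genes the groups did not overlap, against 34.3% of all genes. The median difference was -0.05 log2 units over the 36 genes and 0.09 over all genes.

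Col12a1 had the largest rise. It was 5.70, 5.78 and 5.48 in the 3 NMG and ran from 6.20 to 11.20 with a median of 10.02 in PT, so the groups did not overlap. The difference was 3.79 log2 units, or 13.8-fold (SE 0.823, limma adjusted p = 5e-04). Of its 4 probe sets, the next differed by 1.83 and the remaining pair by 0.01 and -0.03. That pair had tissue means of 3.05 and 2.98, under the lowest limit of expression of any array, 4.49. Tnc, which encodes tenascin C, a matricellular protein of remodeled tissue, was 7.78, 8.01 and 8.04 in NMG and 8.21 to 11.45 in PT, again without overlap, and rose by 2.22 (SE 0.623, limma adjusted p = 0.00491). Lox was 7.80, 7.22 and 7.48 in NMG and 8.14 to 9.96 in PT, and rose by 1.63 (SE 0.351, limma adjusted p = 0.00046). Eln, the gene of elastin, rose by 1.16 (SE 0.429, limma adjusted p = 0.0279), with 8 of 11 PT above every NMG, and lost the call without NMG replicate 2 or 3.

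Dcn had the largest fall. It was 12.11, 12.38 and 12.93 in NMG and 7.99 to 10.28 in PT, and every PT lay below every NMG. The difference was -2.85 (SE 0.447, limma adjusted p = 1.09e-05). Fap was 9.28, 8.75 and 9.37 in NMG and ran from 4.71 to 7.95 with a median of 7.07 in PT, a difference of -2.42 (SE 0.533, limma adjusted p = 0.000567), also without overlap. Col14a1 was 8.34, 9.12 and 8.73 in NMG and 6.38 to 8.16 in PT and fell by 1.52 (limma adjusted p = 0.000295). Col15a1 fell by 0.93 and Loxl1 by 1.04, with 9 and 8 of the 11 PT below every NMG. Without NMG replicate 2, the genes lower in PT numbered 3 in place of 5, with Col15a1 and Loxl1 lost, and the call on Loxl1 was lost on leaving out any of 8 arrays in turn.

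The fiber collagens varied more among the PT than they differed from NMG. Col1a1 was 10.70, 9.86 and 8.84 in NMG and 8.12 to 11.41 in PT, a difference of 0.41 (SE 0.664, limma adjusted p = 0.641). Col1a2 differed by -0.33 and Col3a1 by -0.70, and the type V chains Col5a1 and Col5a2 by 0.20 and 0.49. All 3 collagen VI chains had differences between -0.18 and 0.45 with an SE of 0.656 to 0.834. These values do not show that the levels were alike. Lum, which encodes lumican, was 10.47, 11.04 and 11.21 in NMG and 6.77 to 10.49 in PT, with 9 of 11 PT below every NMG, and at -1.66 (SE 0.785) had an adjusted p of 0.0851 in limma. Without PT replicate 5 and LungMets replicate 9, 7 genes were higher, with Fn1, Postn and Cilp added, and 7 lower, with Lum, Fbln5 and Pdgfra added and Loxl1 lost. Over all arrays the other probe set of Fn1 differed by -0.49 and those of Pdgfra by 1.36 and 0.39, opposite in sign to those used. With each array centred on its median, 8 were higher and 4 lower, with Fn1, Bgn, Postn and Cilp added and Loxl1 lost. That centring moved the comparison of array medians by -0.156. The share of all genes called is not given for this setting or without PT replicate 5 and LungMets replicate 9.

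Markers of other cells differed in this comparison too. Of the 10 adipocyte genes, all 10 were lower in PT, and their mean was 4.94 to 6.47 there. Of 16 other fibroblast genes 10 were lower and 0 higher, with Dpt, which encodes dermatopontin, at -2.66. Their mean was 8.64 to 9.11 in NMG and 6.82 to 7.96 in PT. Of 12 endothelial genes 9 were lower and 0 higher, and of 12 mammary epithelium genes 6 were lower and 0 higher. The part of these cells in the changes of the matrix genes was not tested.

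**Figure D3:**
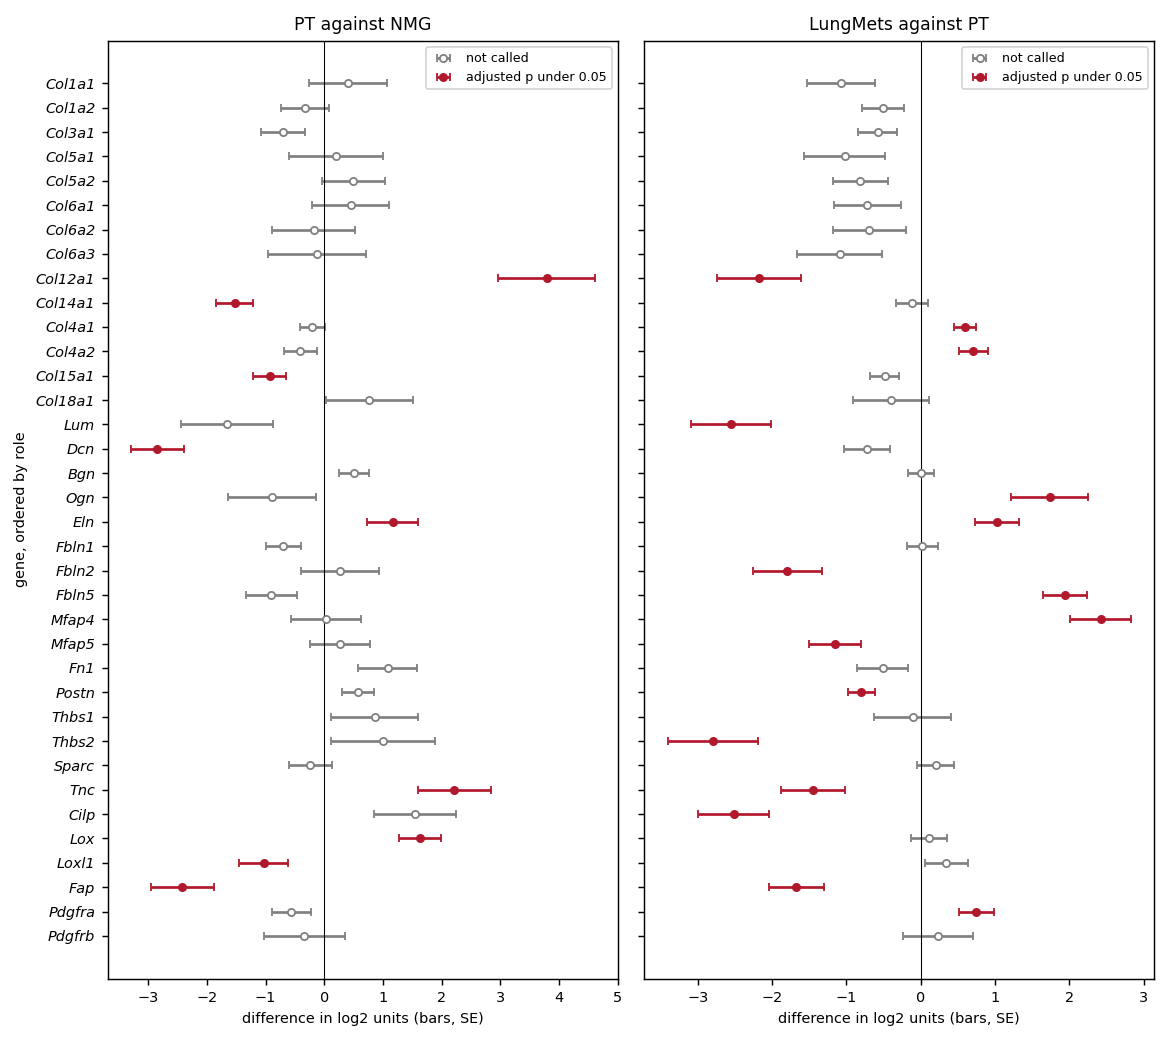
Each row is a gene and the horizontal axis is the difference of group means in log2 units, with PT minus NMG on the left and LungMets minus PT on the right and bars of 1 SE. Filled red points passed limma's adjusted p under 0.05, which were 9 of 36 on the left, from Dcn at -2.85 to Col12a1 at 3.79, and 16 of 36 on the right, from Thbs2 at -2.80 to Mfap4 at 2.42.

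Between the lung metastases and the primary tumors the largest differences were falls of Thbs2, Lum and Cilp and rises of Mfap4 and Fbln5 in the metastases. In LungMets 7 of the 36 genes were higher than in PT (Mfap4, Fbln5, Ogn, Eln, Pdgfra, Col4a2 and Col4a1), against 9.02% of all genes, and 9 were lower (Thbs2, Lum, Cilp, Col12a1, Fbln2, Fap, Tnc, Mfap5 and Postn), against 6.14%. The 7 are 19.4% of the 36 and the 9 are 25%. The other 20 ran from -1.09 for Col6a3 to 0.35 for Loxl1. The median difference was -0.51 over the 36 genes and -0.02 over all genes, and the array medians themselves differed by 0.114. By role, 4 of the 7 adhesive and matricellular genes were lower and 0 higher, 3 of the 6 elastic fiber genes were higher and 2 lower, and both type IV chains were higher.

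Thbs2 had the largest difference. It ran from 4.84 to 9.88 with a median of 8.95 in PT and from 4.21 to 8.79 with a median of 5.16 in LungMets. The highest LungMets value was that of replicate 9 and the next was 6.52, and the lowest PT value was that of replicate 5. LungMets were lower by -2.80 log2 units (SE 0.608, limma adjusted p = 0.00262), and by -3.56 without these arrays. Lum ran from 6.77 to 10.49 in PT and from 5.15 to 10.20 with a median of 6.26 in LungMets, a difference of -2.56 (SE 0.542, limma adjusted p = 0.00215). Cilp, whose protein is best known from cartilage, had medians of 8.63 and 5.59 and a difference of -2.52 (limma adjusted p = 0.000926). Col12a1 had medians of 10.02 and 6.65 and a difference of -2.18 (limma adjusted p = 0.0106), and -1.17 on its next probe set, while the pair of probe sets under the limit of expression differed by 0.03 and 0.22. In each of these, LungMets replicate 9 was the highest of its group and lay among the PT.

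Smaller falls were seen in other genes. Fbln2, which encodes fibulin 2 of microfibrils, differed by -1.80, Fap by -1.67, Tnc by -1.45 and Mfap5, a microfibril glycoprotein, by -1.15. Without LungMets replicate 7, Tnc, Mfap5, Ogn and Pdgfra were not called. Postn ran from 12.22 to 13.34 in PT and from 11.29 to 13.30 in LungMets, where replicate 9 was again the highest and the next was 12.52, with a difference of -0.80 (SE 0.185, limma adjusted p = 0.0045). The 5 fibrillar collagens all had lower means in LungMets, from -0.51 for Col1a2 to -1.08 for Col1a1, and none passed the test (limma adjusted p 0.118 to 0.256). Without PT replicate 5 and LungMets replicate 9 all 5 passed, from -0.76 for Col1a2 (limma adjusted p = 0.0491) to -1.63 for Col1a1 (limma adjusted p = 0.00182).

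Elastic fiber genes and the type IV collagen chains were among those that were higher in the metastases. Mfap4, which encodes a microfibril protein of elastic fibers, ran from 3.91 to 8.11 in PT, where replicate 5 was the highest and the next was 5.63, and from 5.29 to 8.72 in LungMets, where replicate 9 was the lowest and the next was 7.31. It rose by 2.42 log2 units (SE 0.412, limma adjusted p = 0.000314), and by 3.01 without these arrays. Fbln5, which encodes fibulin 5 of elastic fiber assembly, had medians of 6.07 in PT and 8.26 in LungMets and rose by 1.94 (SE 0.301, limma adjusted p = 0.00014). Ogn rose by 1.74, Eln by 1.02 and Pdgfra by 0.75, of whose 3 probe sets 2 had that sign. Col4a1 ran from 10.01 to 10.83 in PT and from 10.36 to 11.73 in LungMets and rose by 0.59 (SE 0.148, limma adjusted p = 0.00788). Its neighbor Col4a2 ran from 8.63 to 9.67 and from 9.23 to 10.96 and rose by 0.71 (SE 0.193, limma adjusted p = 0.0141). For both chains 5 of 9 LungMets lay above every PT. Both calls held with each array left out in turn. They were lost within the first date alone (limma adjusted p = 0.0608 for Col4a1 and 0.118 for Col4a2). They were also lost within the second date and with a fold of 2 as a further limit.

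**Figure D4:**
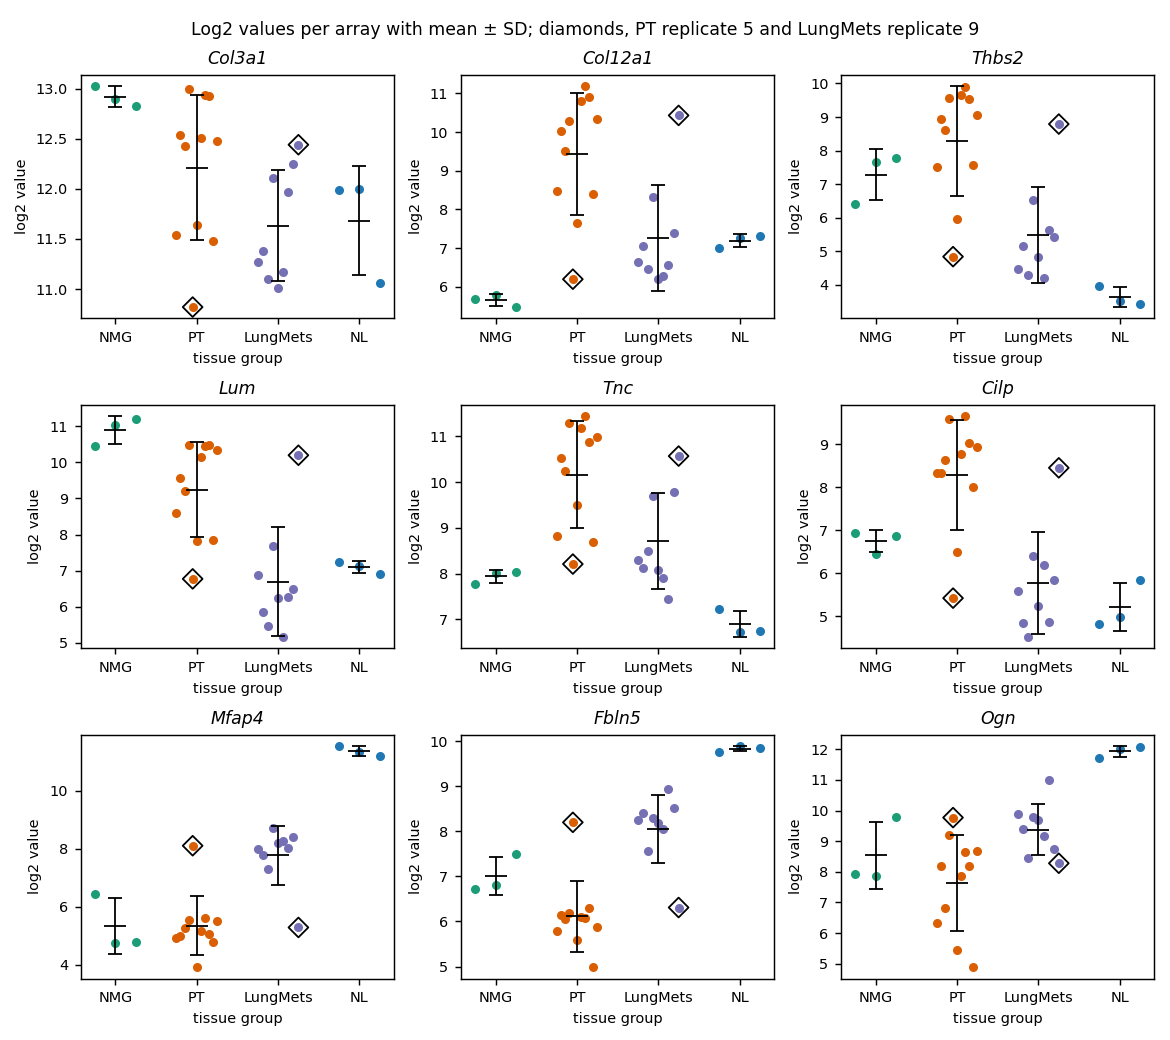
Each panel is 1 gene, each point 1 array by tissue group, with log2 values on the vertical axis, and the bars are the mean and SD of each group. The open diamonds mark PT replicate 5, which is the lowest PT for Thbs2 (4.84) and the highest for Mfap4 (8.11), and LungMets replicate 9, which is the highest LungMets for Thbs2 (8.79) and the lowest for Mfap4 (5.29).

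In all 36 genes the groups overlapped in this comparison, and 0.11% of all genes had groups without overlap. Without PT replicate 5 and LungMets replicate 9, 7 genes were higher and 17 lower. Added were Col1a1, Col1a2, Col3a1, Col5a1, Col5a2, Col6a1, Col15a1 and Dcn. Without PT replicate 5 alone 14 were lower. The share of all genes called in these fits is not given, so the added calls cannot be read as particular to these genes. All 16 called genes kept their sign within each date batch of the labels, but the same arrays made the calls, so this is no independent check. With the date as a block 12 of the 16 were called and none of the other 20, against 11.3% of all genes, and Ogn (limma adjusted p = 0.0501), Pdgfra (0.0549), Tnc (0.0571) and Mfap5 (0.0593) were not. Within the first date 12 of the 36 genes passed, against 7.66% of all genes. Within the second date, which holds both arrays in question, 0 passed limma's adjusted p, 7 had an unadjusted p under 0.05, and 0 of all genes passed, with 2670 at an unadjusted p under 0.05.

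Markers of lung epithelium and endothelium differed in this comparison too. All 11 lung epithelium genes were higher in LungMets than in PT, with Sftpc, a surfactant protein of alveolar cells, at 12.95 ± 1.70 (SD, n = 9) and 6.20 ± 2.84 (SD, n = 11). Of 12 endothelial genes 11 were higher, and their mean was 6.63 to 9.06 in LungMets and 5.03 to 7.78 in PT. Their part in the changes of the matrix genes was not tested. Mfap4, Fbln5, Ogn and Pdgfra had their highest group mean in NL, at 11.36, 9.83, 11.93 and 11.17, and the LungMets mean lay between those of PT and NL. That held for 24 of the 36 genes, close to the 64% of all genes for which it held.

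Against normal lung the metastases had less Mfap4, Ogn and Fbln5 and more Tnc, Lox and Postn. Of the 36 genes 3 were higher in LungMets than in NL, against 23.8% of all genes, and 10 were lower (Mfap4, Ogn, Fbln5, Fbln1, Dcn, Loxl1, Pdgfra, Bgn, Col14a1 and Col4a2), against 22.4%. The other 23 ran from -1.02 for Col6a3 to 1.85 for Thbs2. The median difference was -0.27 over the 36 genes and 0.05 over all genes. In 11 of the 36 genes the groups did not overlap, against 34.1% of all genes.

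Mfap4 was 11.55, 11.33 and 11.21 in the 3 NL and at most 8.72 in LungMets. The difference was -3.59 log2 units, or 12-fold (SE 0.612, limma adjusted p = 3.47e-05). Ogn was 11.73, 12.00 and 12.06 in NL and 8.28 to 11 in LungMets, a difference of -2.55 (SE 0.768, limma adjusted p = 0.0084). Both were below normal lung in every LungMets. Fbln5 differed by -1.78, Fbln1, which encodes fibulin 1, by -1.72 with 2 of its 3 probe sets of that sign, Dcn by -1.66, Loxl1 by -1.46 and Pdgfra by -1.38, and for each of these every LungMets lay below every NL. Bgn, which encodes biglycan, the closest relative of decorin here, was 12.08, 11.86 and 11.87 in NL and 10.52 to 11.65 in LungMets, a difference of -0.93 (SE 0.265, limma adjusted p = 0.00549). Col14a1 and Col4a2 differed by -0.82 and -0.70 with adjusted p of 0.0399 and 0.0494 in limma, and both calls were lost without any 1 of the NL. Over all 26 arrays left out in turn, the call was lost 8 times for Col14a1 and 19 times for Col4a2. Under 9 other settings it was lost in 3 for Col14a1 and in 6 for Col4a2.

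Tnc was 7.22, 6.72 and 6.74 in NL and 7.45 to 10.57 in LungMets and was higher by 1.81 (SE 0.638, limma adjusted p = 0.0222). Lox was 8.44, 8.26 and 8.08 in NL and 8.48 to 10.20 in LungMets and was higher by 0.98 (SE 0.359, limma adjusted p = 0.0278). Every LungMets lay above every NL for both genes. Postn was higher by 0.82 (SE 0.275, limma adjusted p = 0.0166), with 8 of 9 LungMets above every NL. These 3 calls rested on the few normal lungs: without any 1 of the NL 1 gene was called higher, and with the mean of its probe sets Tnc was not called. Thbs2 was 3.97, 3.51 and 3.42 in NL and lay higher in all 9 LungMets, but the difference of 1.85 (SE 0.901) had a limma adjusted p of 0.0963. All 12 endothelial genes were lower in LungMets than in NL, and so were 9 of 16 other fibroblast genes. Their part was not tested.

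Set against the normal mammary gland, where the tumor cells were first placed, the metastases had less Lum, Fap and Dcn and more Mfap4, Eln and Lox. Of the 36 genes 3 were higher in LungMets than in NMG, against 23.1% of all genes, and 6 were lower (Lum, Fap, Dcn, Col14a1, Col15a1 and Col3a1), against 17.9%. In 9 of the 36 genes the groups did not overlap, against 29.7% of all genes. The median difference was -0.30 over the 36 genes and 0.10 over all genes. Lum differed by -4.21 log2 units (SE 0.804, limma adjusted p = 0.00018), Fap by -4.09 (SE 0.545, limma adjusted p = 1.77e-06) and Dcn by -3.57 (SE 0.457, limma adjusted p = 9.86e-07). For these 3 genes every LungMets lay below every NMG, with the highest LungMets for Lum, replicate 9, at 10.20 and the lowest NMG at 10.47. Col3a1 was 13.03, 12.90 and 12.83 in NMG and 11.01 to 12.44 in LungMets, a difference of -1.28 (limma adjusted p = 0.0104), and was the only fibrillar collagen called in these comparisons over all 26 arrays. Eln was higher by 2.19 (SE 0.439, limma adjusted p = 0.000313), Lox by 1.74 and Mfap4 by 2.45. Without PT replicate 5 and LungMets replicate 9 there were 10 genes lower, with Col1a2, Thbs2, Fbln2 and Cilp added, and 4 higher, with Fbln5 added. For this fit the share of all genes called is not given. Of the marker genes, 9 of 11 of lung epithelium were higher and 0 lower in LungMets than in NMG, 10 of 10 of adipocytes were lower, and 9 of 16 of the other fibroblast genes were lower and 3 higher. Their part was not tested.

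The difference between tumor-bearing and normal tissue was then compared between the gland and the lung, as PT minus NMG less LungMets minus NL. Of the 36 genes 3 had a positive interaction that passed the test, against 9.68% of all genes, and 1 a negative one, against 10.1%. Col12a1 differed by 3.79 in the gland and by 0.07 in the lung, where NL already stood at 7, 7.26 and 7.31, and the interaction was 3.72 log2 units (SE 1.18, limma adjusted p = 0.026). That call was lost without any 1 of NL replicates 2 and 3 or the NMG, and with the mean of the probe sets. Mfap4 differed by 0.02 in the gland and by -3.59 in the lung, an interaction of 3.61 (SE 0.855, limma adjusted p = 0.00328). Bgn differed by 0.51 in the gland, where NMG stood at 10.56, 10.41 and 10.51, and by -0.93 in the lung, an interaction of 1.44 (SE 0.371, limma adjusted p = 0.00638). For Mfap4 and Bgn the call held with each of the 26 arrays left out in turn. Col15a1 differed by -0.93 in the gland and by 0.24 in the lung, with an interaction of -1.18 (SE 0.403, limma adjusted p = 0.0403), and it was not called with arrays centred on their medians, which left 3 positive and 0 negative, nor with 10 of the 26 arrays left out in turn.

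**Figure D5:**
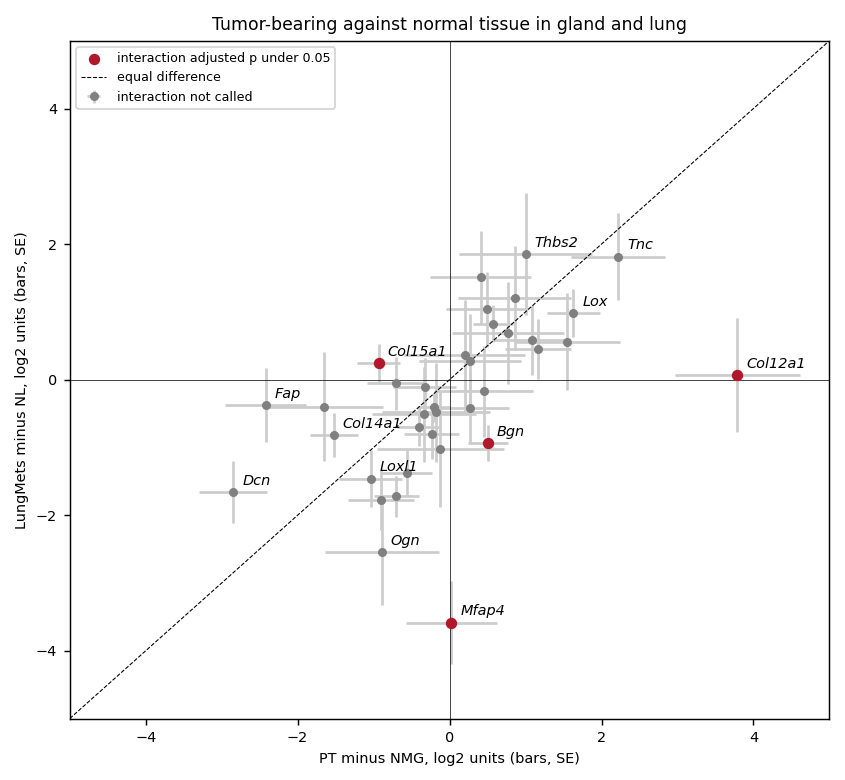
Each point is a gene, with PT minus NMG on the horizontal and LungMets minus NL on the vertical axis in log2 units, bars of 1 SE, and a dashed line where both differences are equal. The 4 red points passed the test of the interaction: Col12a1 (3.79 and 0.07), Mfap4 (0.02 and -3.59), Bgn (0.51 and -0.93) and Col15a1 (-0.93 and 0.24).

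Genes that make, fold and signal for this matrix were read from other lists. Of 16 collagen processing genes 9 were higher and 1 lower in PT than in NMG. Among them were Plod2, a lysyl hydroxylase that sets the cross-link sites of collagen, at 1.83, P4ha2, a prolyl hydroxylase subunit, at 1.12, and Serpinh1, the collagen chaperone HSP47, at 1.07. In LungMets against PT 0 were higher and 3 lower, with Plod1 at -1.05. Against NL 2 were higher and 2 lower. Of 17 TGF-beta and PDGF genes 7 were higher and 2 lower in PT than in NMG, with Ccn2, a matricellular target of TGF-beta signals, at 3.33 and Pdgfa, a ligand of the receptor encoded by Pdgfra, at 2.27. In LungMets against PT 2 were higher and 1 lower, with Pdgfd, a ligand of the receptor encoded by Pdgfrb, at 0.88. Of 25 other collagens 11 were higher and 2 lower in PT than in NMG, with the cartilage collagens Col2a1 at 7.15 and Col11a1 at 6.63 and Col9a1 at 5.87. In LungMets against PT 4 were higher and 8 lower, with the basement membrane chains Col4a4 at 3.45 and Col4a3 at 2.66 and Col2a1 at -2.76.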

How the data were processed

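RNA of whole mouse tissue (26 samples) and of cultured JygMC(A) cells (2 samples) was measured on Affymetrix arrays. Values deposited by the authors are log2 intensities of 45101 probe sets, normalized by RMA in Partek per the submitters' processing notes, with versions not given there. Array medians lay between 5.00 and 5.18 over all 45101 probe sets and between 5.90 and 6.36 over the 18194 genes. Elsewhere the array median is that over the genes. The number of arrays limits the precision. The platform annotation lists 1 gene for 34958 probe sets, several for 932 and none for 9211.

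Where a gene had several probe sets (9012 genes), that with the largest tissue average represented it. limma 3.58.1 in R 4.3.3 fitted group means to the 26 tissue arrays, with no filter. Tests were two-sided with Benjamini-Hochberg adjustment over 18194 genes and a threshold of 0.05. The fit was tested on simulated data. All measured genes of the list were described, and up to 4 called genes with the largest differences from the other lists. The genes and lists were chosen with earlier results of these data known. Promoters and gene order are from RefSeq (GRCm38.p6). Tables were read through jsonlite 2.0.0, and matplotlib 3.10.9 under Python 3.11.15 drew the plots. Alternatives were other probe set rules, a filter, centred or renormalized arrays, blocks for date and replicate number, fits of the compared groups alone, no variance moderation, a fold of 2, and left-out arrays.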

Additional observations from a re-analysis of the deposited data

Results flagged for a closer look

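LungMets replicate 9 stood far from the other LungMets in 5 of the genes, by the gap to its neighbor as a share of the range of the group. It was the highest for Col12a1 at 10.43 (the next was 8.31), Lum at 10.20 (7.69), Thbs2 at 8.79 (6.52) and Cilp at 8.45 (6.41), and the lowest for Mfap4 at 5.29 (7.31). Chance alone gives such a gap in about 1 in 20 groups. It is 1 of the arrays that went against their labels, and counts without it and PT replicate 5 are given above. PT values were not tested for such gaps, since PT has more than 10 samples.

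For 4 genes the difference between tumor-bearing and normal tissue differed between the gland and the lung by the test of the interaction: Col12a1 at 3.72, Mfap4 at 3.61, Bgn at 1.44 and Col15a1 at -1.18 log2 units. NMG and NL each have a date of their own, so date and tissue cannot be told apart in these values.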

How the results depend on the processing

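Of 51 calls on single genes followed over 503 values under alternatives, 447 were kept, 56 lost and 0 reversed, and with 1 array left out 1256 of 1326 were kept, 70 lost and 0 reversed. With arrays centred on their median, genes higher in PT against NMG numbered 8 in place of 4, and without PT replicate 5 and LungMets replicate 9 together 7. That last setting gave 17 lower in LungMets against PT in place of 9 and 10 lower in LungMets against NMG in place of 6. The replicate block gave 20 and 14 for these counts. Deviations of same-numbered PT and LungMets from their group means correlated from -0.233 to 0.481, over 0.1 in 7 of 9 pairs, and in 0 of the 15 pairs with NMG or NL. Of the 9 LungMets 1 correlated best with the PT of its own number, so the numbers were not taken as pairs. A fold of 2 as a further limit left 4 of 7 higher in LungMets against PT and 1 of 3 in LungMets against NL. The first date alone gave 4 higher in LungMets against PT, and the second 0 higher and 0 lower. The single negative interaction became 2 with the mean of the probe sets, the filter or the replicate block, and 0 with centred or renormalized arrays, without both arrays or without variance moderation. A fit of the compared groups alone does not exist for the interaction, which uses all 4. Genes with a LungMets mean over culture fell from 15 to 9 at a limit of 3 log2 units and to 8 with the mean of the probe sets. Except for the date fits above, shares of all genes under these settings are not given, and the cause of these changes was not tested.

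With each array left out, higher and lower counts ran from 3 to 6 and 3 to 7 in PT against NMG, 5 to 7 and 7 to 14 in LungMets against PT, 1 to 4 and 8 to 11 in LungMets against NL, and 3 to 4 and 6 to 8 in LungMets against NMG. The positive interactions ran from 2 to 3 and the negative ones from 0 to 2. With 3 samples each, NMG and NL limit every comparison that uses them.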

Other observations

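Several macrophage genes were higher in the tumor-bearing lung than in normal lung. Of 13 genes, 7 were higher and 1 lower in LungMets than in NL, with Msr1, a scavenger receptor, at 2.07 and C1qc, a complement subunit, at 1.71 log2 units. In PT against NMG 0 were higher and 4 lower, with Mrc1, the mannose receptor, at -1.58. The mean over the list was 8.03 to 8.66 in LungMets, 7.24 to 8.23 in PT, 7.37 to 7.71 in NL and 8.34 to 9.04 in NMG.

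Genes of contractile cells were lower in both tumor sites than in the normal tissue. Of 12 pericyte and smooth muscle genes, 8 were lower and 0 higher in PT than in NMG and again 8 and 0 in LungMets than in NL, with Myh11, the smooth muscle myosin, at -3.29 and -3.04. Of 11 cartilage genes, 9 were higher in PT than in NMG and 6 in LungMets than in NL, with 0 lower in either. Col9a1, a cartilage collagen, was 11.75 ± 1.04 in PT (SD, n = 11), 10.43 ± 1.88 in LungMets (SD, n = 9), 5.88 ± 1.02 in NMG and 3.73 ± 0.73 in NL (SD, n = 3 each).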
